A study of Mus musculus with 6 samples.

Results

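The subject is the transcripts of 10 genes that act at or just below the insulin receptor: Insr, Irs1, Pik3r1, Akt1, Akt2, Grb10, Grb14, Cbl, Cblb and Socs3. They were found as all probes that carried one of these symbols in the platform annotation, which gave 14 probes among the 21020 probes with a gene symbol and the 29922 probes on the array. Akt2 had 3 probes, Grb10 and Cblb had 2 each, and the other 7 genes had 1 each. Every probe is described, because probes of a gene can disagree. Probes of 1 gene are numbered by brightness, probe 1 being the brightest over the 6 arrays.

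Insulin binding turns on the tyrosine kinase of its receptor, which then phosphorylates docking proteins such as IRS1. The docking proteins recruit PI 3-kinase, and its lipid product brings AKT kinases to the membrane, where they drive glucose uptake and glycogen synthesis in muscle and restrain glucose output in liver. GRB10 and GRB14 bind the activated receptor and block it, SOCS3 binds the receptor and its substrates and is itself induced by cytokines through STAT3, and CBL and CBLB are adaptors and ubiquitin ligases that mark activated receptors and kinases for removal.

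All mice were ob/ob mice (B6.V-Lepob/J), which make no functional leptin and become obese and insulin resistant. They fasted for 4 h, and 15 min before 1 g/kg of glucose was injected into the peritoneum they were dosed by mouth with MCSE, a water extract made from the seeds of bitter melon (Momordica charantia), or with PBS. Tissues were collected 4 h after the injection. The 6 one-colour arrays were MCSE muscle and PBS muscle, MCSE liver and PBS liver, and MCSE adipose and PBS adipose, with 1 array each. The labels did not give the age or sex of the mice, nor whether an array held RNA pooled from several mice, nor whether the same mice gave all tissues. The series title names an insulin receptor-binding protein of this plant. The arrays measured transcripts, and not the binding to the receptor or its activity.

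The tissue labels of 4 arrays did not match the transcripts on them. Fast-fibre muscle genes had a median log2 intensity of 15.87 on each muscle array and at most 9.37 elsewhere. The muscle arrays also carried white adipocyte genes (median 12.73 on MCSE muscle and 12.55 on PBS muscle). The arrays labelled liver carried hepatocyte genes (median 12.18 on MCSE liver and 12.37 on PBS liver), but also white adipocyte genes (14.77 and 14.54) and kidney genes (13.08 and 11.86). MCSE adipose correlated with MCSE liver at 0.982 over all probes, as a description of 2 arrays that share platform and scale, while PBS adipose correlated with the other arrays at 0.307 to 0.517 and had a white adipocyte median of 9.36. "Liver" and "adipose" below therefore name labels and not identified tissues. In such bulk RNA, a change in the share of a cell type and a change in RNA per cell cannot be told apart.

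**Figure D1:**
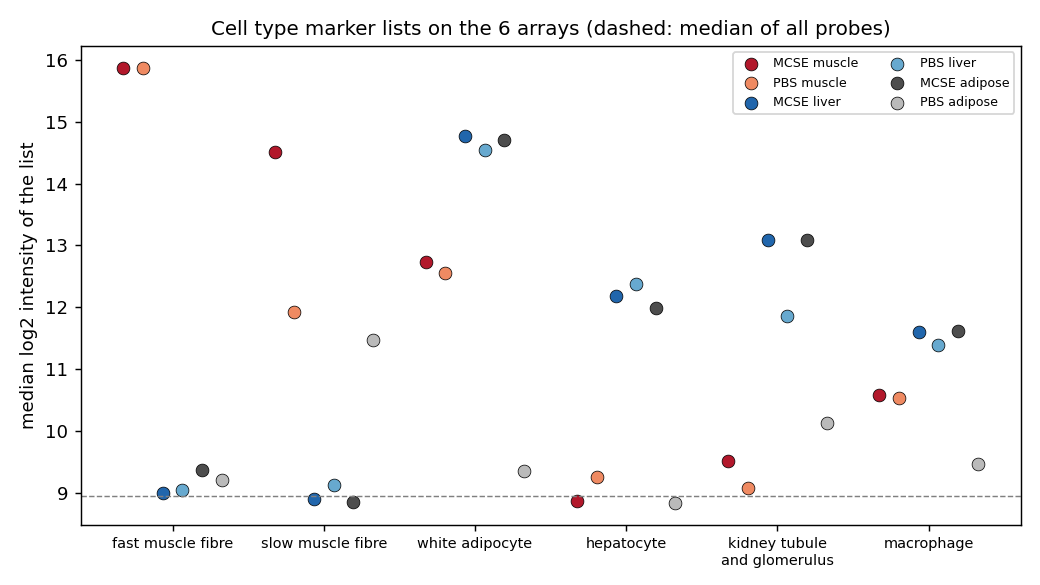
Median log2 intensity of 6 cell type marker lists (x axis) on each of the 6 arrays (points, MCSE left of PBS for each label), with the median of all probes as a dashed line. Fast-fibre genes stood at 15.87 on the muscle arrays alone, whereas adipocyte, hepatocyte and kidney genes were bright together on MCSE liver, PBS liver and MCSE adipose. Adipocyte genes were also bright on MCSE muscle (12.73) and PBS muscle (12.55).

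Socs3 was the only 1 of the 14 probes that was at least 2-fold higher with MCSE on both the muscle and the liver pair. For this reason the stretch around its transcription start is shown, 250 bases before to 50 after it on the minus strand of chromosome 11, from RefSeq (GRCm38.p6, chr11:117969317-117969616). Capitals mark the match to TTCNNNGAA, the palindrome that STAT dimers bind, searched on both strands.
Socs3: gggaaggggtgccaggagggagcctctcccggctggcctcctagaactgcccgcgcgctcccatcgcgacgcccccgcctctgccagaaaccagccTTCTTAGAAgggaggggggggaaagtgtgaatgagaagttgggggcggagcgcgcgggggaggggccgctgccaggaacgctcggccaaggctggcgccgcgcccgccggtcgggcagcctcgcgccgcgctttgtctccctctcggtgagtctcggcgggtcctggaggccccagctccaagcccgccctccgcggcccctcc
The match began 154 bases before the start, and 73.3% of the window was G or C. Windows were found for 9 of the 10 genes (15 windows, as some genes have several starts), and TTCNNNGAA lay in 2 of them, that of Socs3 and 1 of 4 of Akt2, against 8.30% of all 32851 promoter windows. The forkhead motif GTAAACA, which overlaps neither of the other motifs, lay in 1 member window (of Akt1) against 3.65% of all, and the cyclic AMP response element TGACGTCA in 0 of the 15 against 1.79% of all. A match of letters is a description and does not show that a factor was bound.

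The level of each probe on the 6 arrays is given first, along the path from the receptor. Insr, the insulin receptor, had a log2 intensity of 11.22 on MCSE muscle and 11.94 on PBS muscle, 10.06 on MCSE liver and 9.96 on PBS liver, and 11.16 on MCSE adipose and 14.66 on PBS adipose. Both muscle arrays thus lay above both liver-labelled arrays, and PBS adipose lay 2.73 above the next brightest array, within the top 1% of its probes (percentile 99.1). Irs1, a main docking protein of muscle and fat, lay between 7.79 and 8.26 on all 6 arrays, below the median of all probes (8.95), where neither a level nor a difference could be read. Pik3r1, the regulatory subunit that ties PI 3-kinase to IRS proteins, was at 11.29 on MCSE muscle and 12.34 on PBS muscle, 11.34 on MCSE liver and 11.25 on PBS liver, and 11.23 on MCSE adipose and 10.69 on PBS adipose. PBS muscle was the high array for this gene, and the 3 MCSE arrays and PBS liver spanned 0.10.

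The AKT kinases were bright on all arrays by their brightest probes. Akt1, the broadly expressed form linked to growth, was at 11.14 on MCSE muscle and 10.60 on PBS muscle, 11.61 on MCSE liver and 11.33 on PBS liver, and 11.50 on MCSE adipose and 9.97 on PBS adipose. Akt2, the form most tied to glucose uptake, had 13.01 on MCSE muscle and 12.99 on PBS muscle on probe 1, 12.59 on MCSE liver and 13.24 on PBS liver, and 12.36 on MCSE adipose and 11.09 on PBS adipose. Its dimmer probes ran differently. Probe 2 was highest on PBS liver (10.53, against 9.48 on MCSE liver) and lay at 9.19 on MCSE muscle, 9.57 on PBS muscle, 9.21 on MCSE adipose and 8.81 on PBS adipose. Probe 3 was lowest on the liver-labelled arrays (8.55 on MCSE liver and 8.40 on PBS liver, each under the all-probe median), with 9.35 on MCSE muscle and 9.40 on PBS muscle, and 9.14 on MCSE adipose and 10.12 on PBS adipose.

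Among the inhibitors, the receptor-binding adaptors Grb10 and Grb14 had unlike patterns. Grb10 varied little on probe 1, with 10.79 on MCSE muscle and 11.04 on PBS muscle, 10.35 on MCSE liver and 10.73 on PBS liver, and 10.39 on MCSE adipose and 11.35 on PBS adipose. Its probe 2 stayed below the median of all probes on all 6 arrays (8.06 to 8.86). Grb14 had 9.38 on MCSE muscle and 8.96 on PBS muscle, 11.28 on MCSE liver and 9.76 on PBS liver, and 11.31 on MCSE adipose and 8.14 on PBS adipose. MCSE liver and MCSE adipose were thus its 2 high arrays, PBS liver stood between, and PBS muscle lay at the median of all probes.

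The ubiquitin ligases and Socs3 separated the arrays more. Cbl had 10.42 on MCSE muscle and 12.14 on PBS muscle, 10.14 on MCSE liver and 10.45 on PBS liver, and 10.19 on MCSE adipose and 10.97 on PBS adipose, so PBS muscle alone was high. Cblb had 11.39 on MCSE muscle and 11.37 on PBS muscle on probe 1, 10.20 on MCSE liver and 8.90 on PBS liver, and 11.28 on MCSE adipose and 9.04 on PBS adipose. PBS liver and PBS adipose were its low arrays. Probe 2 of Cblb was dim, at 9.0 on MCSE muscle and 9.42 on PBS muscle, 8.78 on MCSE liver and 9.29 on PBS liver, and 8.54 on MCSE adipose and 8.30 on PBS adipose, and it did not repeat that pattern. Socs3 had 12.46 on MCSE muscle and 10.49 on PBS muscle, 11.33 on MCSE liver and 9.64 on PBS liver, and 11.45 on MCSE adipose and 9.54 on PBS adipose. Each of the 3 MCSE arrays lay above each of the 3 PBS arrays for Socs3. MCSE adipose nearly repeated MCSE liver (correlation 0.982 over all probes), so these were not 3 separate comparisons. The share of all probes with this order was not counted.

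**Figure D2:**
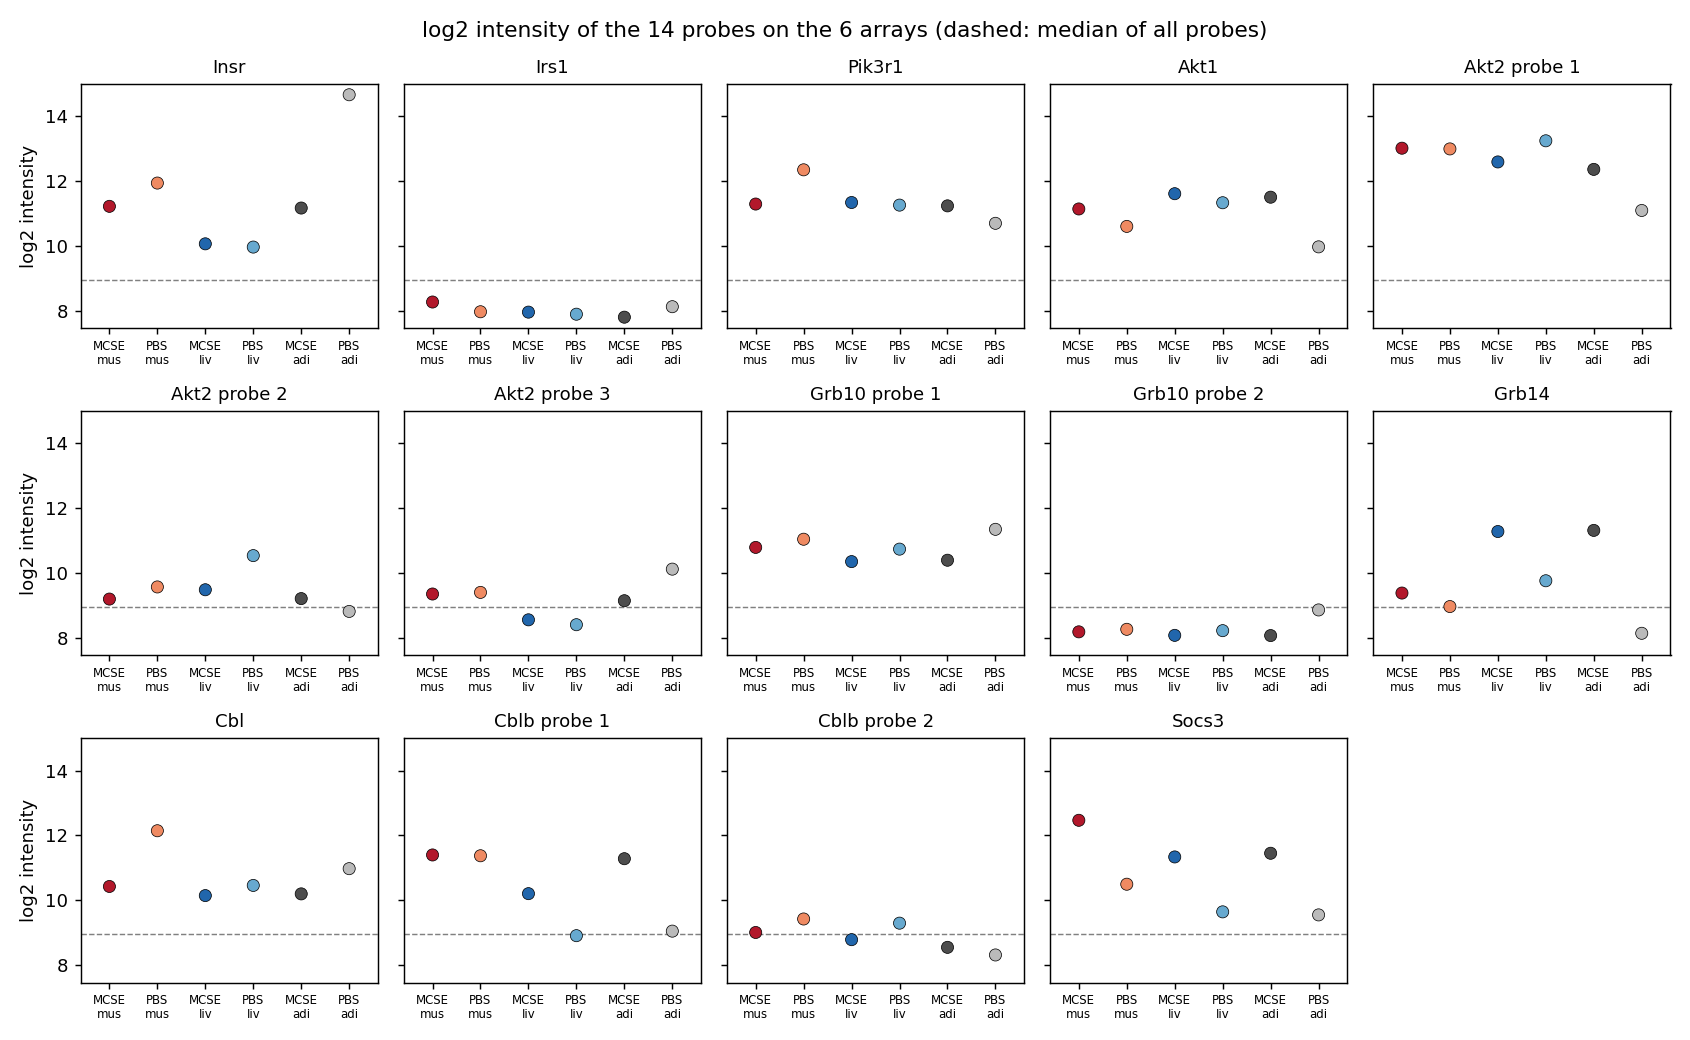
log2 intensity (y axis) of each of the 14 probes on the 6 arrays (x axis, MCSE left of PBS within muscle, liver and adipose labels), 1 point an array, with the median of all probes (8.95) as a dashed line. Socs3 was higher on every MCSE array (11.33 to 12.46) than on any PBS array (9.54 to 10.49), Insr peaked on PBS adipose at 14.66, and Irs1 and probe 2 of Grb10 stayed under the dashed line. MCSE adipose nearly repeated MCSE liver (correlation 0.982 over all probes), and the share of all probes with the order seen for Socs3 was not counted.

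The effect of MCSE in muscle was described next, without a test since each treatment had 1 array. Socs3 was 1.97 higher on the log2 scale with MCSE (3.93-fold), Cbl was 1.72 lower (a difference of -1.72, 3.30-fold) and Pik3r1 was lower at -1.06 (2.08-fold). A probe was counted as measured where at least 1 array of the pair reached the median of all probes, which held for 12 of the 14 (not Irs1 and probe 2 of Grb10). Of these 12, 1 was at least 2-fold higher and 2 were at least 2-fold lower, where 3.92% and 2.02% of 12497 measured probes were. The median difference of the 12 was -0.15, against -0.05 over all measured probes, and 5 lay above 0 and 7 below.

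The spread between 2 probes of the same gene gave a rough gauge of error between probes. This SD per probe was 0.517 for muscle and 0.611 for the liver pair. It holds no variation between mice and no error that both probes share, so distances in these SDs are not tests. Socs3 in muscle lay 3.82 such SDs from 0, Cbl 3.33 and Pik3r1 2.05. Only 0.464% of measured probes were as high as Socs3 and 0.408% as low as Cbl, while 1.66% were as low as Pik3r1. Each of these genes had 1 probe, so none had a second probe as a check.

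Insr in muscle was at -0.72 with MCSE (1.65-fold lower), 1.39 times the SD per probe, and 4.77% of measured probes were as low. Akt1 was 0.54 higher, close to 1 SD per probe, and Grb14 0.42 higher on a probe near the median of all probes. The 3 Akt2 probes gave 0.02, -0.37 and -0.05, and the measured Grb10 probe -0.25. Cblb gave 0.02 and -0.42. All of these but Insr and Akt1 were smaller than the SD per probe.

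Fibre and tissue markers also differed between the muscle arrays. Slow-fibre genes had a median of 14.52 on MCSE muscle and 11.92 on PBS muscle, with 5 of 7 at least 2-fold higher (Myh7, the slow myosin heavy chain, by 3.54 on its brightest probe and 0.16 on a dim one that was not measured), whereas 0 of 10 fast-fibre genes were. Kidney genes had a median of 9.51 on MCSE muscle and 9.08 on PBS muscle, with Kap, an androgen-regulated kidney transcript, 3.20 higher and 2 of 8 measured genes past 2-fold. Of 6 measured hepatocyte genes 0 were past 2-fold higher and 1 lower (Alb, serum albumin, at -1.91), with a median of -0.22. Macrophage genes had a median of 10.58 on MCSE muscle and 10.54 on PBS muscle with 0 of 7 past 2-fold. The median of their 7 differences was 0.52. Of 3 measured neutrophil genes S100a9 and S100a8 were at 1.48 and 0.99 and Mpo, myeloperoxidase, at -0.54 (other probe -1.07). The part of these markers in the differences of Socs3, Cbl, Pik3r1 and Insr was not tested.

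On the liver-labelled arrays, Socs3 was 1.70 higher with MCSE (3.24-fold), Grb14 1.52 higher (2.87-fold) and Cblb 1.30 higher on probe 1 (2.46-fold), whereas Akt2 was lower at -1.05 on probe 2 (2.08-fold). Of 11 measured member probes, 3 were at least 2-fold higher and 1 at least 2-fold lower, where 8.11% and 5.70% of 13297 measured probes were. Insr (0.10) and Pik3r1 (0.08) differed by far less than the SD per probe of 0.611, as did Akt1 (0.28), Cbl (-0.31) and probe 1 of Grb10 (-0.39). The median of the 11 was 0.08, against -0.01 over all measured probes.

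Socs3 lay 2.77 SDs per probe from 0 on this pair, Grb14 2.49, probe 1 of Cblb 2.12 and probe 2 of Akt2 1.72. Differences as high as that of Socs3 were seen for 1.84% of measured probes, of Grb14 for 2.50% and of Cblb for 3.98%, and a difference as low as that of Akt2 probe 2 for 4.90%. The brightest Akt2 probe gave -0.65, in the same direction and just over 1 SD, and probe 3 was not measured. Probe 2 of Cblb gave -0.51, opposite in sign to probe 1 and within 1 SD per probe.

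Probe 1 of Cblb was at least 2-fold dimmer on PBS liver than on both muscle arrays, MCSE adipose and MCSE liver, which 451 of 13297 measured probes (3.39%) were. By definition all 451 were at least 2-fold higher with MCSE on the liver pair, and they made up 41.8% of the 1079 probes that were. No other measured member probe was of this kind (1 of 11, or 1 of the 3 that were at least 2-fold higher with MCSE). Probe 1 of Cblb was also low on PBS adipose (9.04, against 8.90 on PBS liver). Socs3 on PBS liver (9.64) lay close to PBS adipose (9.54), and below PBS muscle (10.49) by less than 2-fold.

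Kidney genes were higher alongside Grb14, which kidney and liver both express. They had a median of 13.08 on MCSE liver, 11.86 on PBS liver, 13.09 on MCSE adipose and 10.12 on PBS adipose, and on the liver pair 7 of the 10 measured were past 2-fold higher and 0 lower. Umod, of the thick ascending limb, was 1.81 higher and Slc34a1, the phosphate transporter of the proximal tubule, 1.20 higher, while Kap differed by -0.02 near the top of the scale. The part of kidney RNA in the Grb14 difference was not tested. Hepatocyte genes had a median of 12.18 on MCSE liver and 12.37 on PBS liver, with 1 of 8 higher and 1 lower. Of 4 measured slow-fibre genes 3 were past 2-fold lower (Myl3 at -2.89, Tnnc1 at -1.50 and Myl2 at -1.47), and of 8 white adipocyte genes 1 was past 2-fold higher, with a median difference of 0.65. The part of these markers in the member differences of this pair was not tested.

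**Figure D3:**
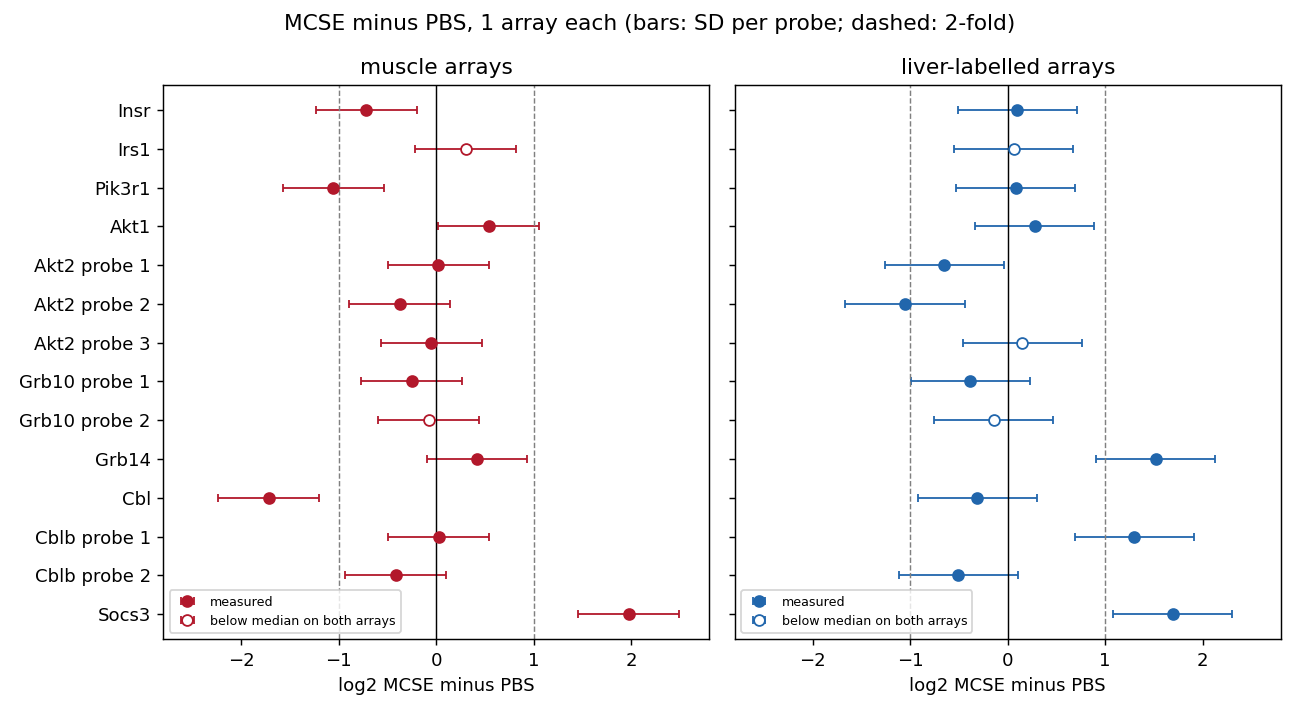
log2 MCSE minus PBS (x axis) for each of the 14 probes (rows) on the muscle pair (left) and the liver-labelled pair (right), with the SD per probe as bars (0.517 and 0.611), the 2-fold limits dashed, and open points for probes not measured on the pair. Socs3 lay past 2-fold in both panels (1.97 and 1.70), Cbl (-1.72) and Pik3r1 (-1.06) in muscle alone, and Grb14 (1.52), probe 1 of Cblb (1.30) and probe 2 of Akt2 (-1.05) on the liver pair alone.

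The muscle and liver pairs were then set side by side. Among the 11 member probes measured in both, Socs3 was the 1 that was at least 2-fold higher in both, as were 1.04% of 11009 probes measured in both. The muscle difference minus the liver difference was -1.41 for Cbl, -1.27 for probe 1 of Cblb, -1.14 for Pik3r1 and -1.10 for Grb14, whereas for Socs3 it was 0.28. With 1 array a group these gaps between pairs could not be tested.

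Levels were then compared between labels, muscle minus liver, with limma over all 21020 named probes on 4 arrays, so that the MCSE and PBS array of a label were its 2 samples and their spread held any effect of MCSE. Of the 14 member probes 1 passed an adjusted p under 0.05, where 12.2% of all probes did (4.51% higher and 7.73% lower in muscle). That probe was the dim probe 3 of Akt2, at 0.90 ± 0.12 (SE, 95% interval 0.53 to 1.27, limma adjusted p = 0.0401). The other Akt2 probes gave 0.09 ± 0.27 and -0.63 ± 0.44, with limma adjusted p of 0.855 and 0.395, so the call did not extend to the brighter probes. It was lost with all 6 arrays in the fit (adjusted p = 0.570), with treatment as a term (0.0777) and with a trended prior (0.0570), and with any 1 of the 4 arrays left out (0.0748 to 0.250).

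Insr was 1.57 ± 0.30 (SE) higher in muscle, with a 95% interval of 0.68 to 2.45 and a limma adjusted p of 0.0628. It passed when dim probes were filtered out (adjusted p = 0.0200) and with 32 added before log2 (0.0381). It did not pass with all 6 arrays (0.753), with treatment as a term (0.0875) or with a trended prior (0.0554). With 1 array left out in turn, the Insr estimate ran from 1.21 to 1.93. The muscle and liver difference was 1.16 between the MCSE arrays and 1.98 between the PBS arrays, the same direction within each treatment. Probe 1 of Cblb was 1.83 ± 0.51 higher in muscle (limma adjusted p = 0.114), which passed with the filter on dim probes (0.0304). It did not pass with all 6 arrays (0.604), treatment as a term (0.111), a trended prior (0.0848) or 32 added (0.0718). The difference was 1.19 between the MCSE arrays and 2.47 between the PBS arrays, and without PBS liver the estimate was 1.18 (limma adjusted p = 0.0734).

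Grb14 was lower in muscle at -1.35 ± 0.61 (SE, limma adjusted p = 0.236), with an interval of -3.17 to 0.48 and with -1.90 between the MCSE arrays and -0.80 between the PBS arrays. Akt1 was at -0.60 ± 0.26 (0.216) and Socs3 at 0.99 ± 1.00 (0.541), the wide error of Socs3 holding its difference between MCSE and PBS. With treatment as a term, Socs3 was at 0.99 ± 0.16 (interval 0.45 to 1.53), still without passing (limma adjusted p = 0.0764). Muscle was higher for Socs3 by 1.13 between the MCSE arrays and by 0.85 between the PBS arrays. Cbl (0.99 ± 0.68) and Pik3r1 (0.52 ± 0.42) did not pass either, with limma adjusted p of 0.386 and 0.450. With 1 array left out in turn, these estimates ran widely, Grb14 from -2.11 to -0.59, Socs3 from 0.0052 to 1.98, Cbl from 0.12 to 1.85 and probe 2 of Akt2 from -1.15 to -0.10. For 5 of the 14 probes both muscle arrays lay above both liver-labelled arrays and for 2 below, where 29.5% and 35.5% of all probes did so.

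**Figure D4:**
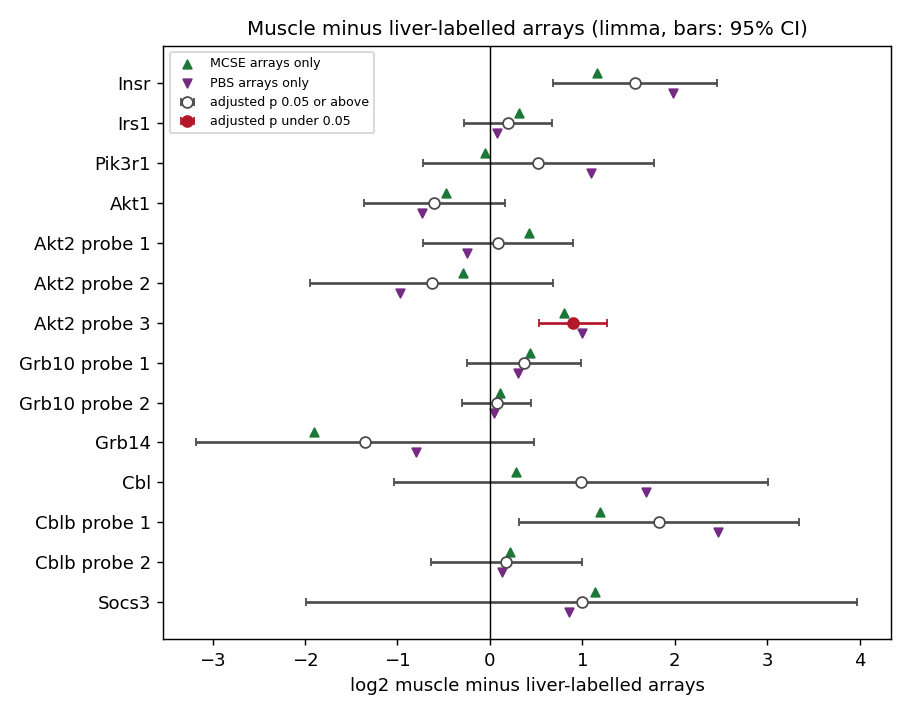
Muscle minus liver-labelled arrays on the log2 scale (x axis) for each of the 14 probes (rows), as the limma estimate with its 95% interval (circles and bars), and between the MCSE arrays alone (upward triangles) or the PBS arrays alone (downward triangles). Insr (1.57) and probe 1 of Cblb (1.83) had intervals above 0 without passing the adjusted threshold, and only the dim probe 3 of Akt2 (0.90) passed it.

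The adipose-labelled arrays are given as levels alone. The member counts here lack the share of all probes, which was not taken, and are not read as traits of the members. Over all probes, PBS adipose correlated with the other arrays at 0.307 to 0.517 and MCSE adipose with MCSE liver at 0.982. On PBS adipose, 7 of the 14 probes had their lowest and 4 their highest value of the 6 arrays. On MCSE adipose, 11 of the 14 probes lay within 0.3 of MCSE liver on the log2 scale. The exceptions were Insr, 1.11 higher on MCSE adipose, probe 1 of Cblb, 1.08 higher, and probe 3 of Akt2, 0.59 higher. Of 12607 probes measured on these arrays 2.33% were at least 2-fold higher on MCSE adipose and 0 were at least 2-fold lower. Insr and probe 1 of Cblb were among this 2.33%, in a comparison that was chosen after its values were seen.

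Genes with the most similar profile over the 6 arrays were sought for Insr, Grb14 and Socs3, as the mean absolute difference between log2 values centred on each gene's mean, among 12412 genes. Htr3a, a serotonin-gated channel (0.148), Arhgef1 (0.186), and Itpkb, an inositol trisphosphate kinase (0.214), were closest to Insr. Their peaks on PBS adipose (12.05, 15.48 and 14.14) followed from this choice, since Insr itself peaked there. Closest to Grb14 were Scpep1, a serine carboxypeptidase (0.102), Mep1b, a brush-border protease of kidney and gut (0.105), and Gclc, which makes glutathione (0.132). The 3 closest to Socs3 carried unnamed clone symbols (2010001E11Rik at 0.209, E330026B02Rik at 0.223 and 1700013H16Rik at 0.235). These likenesses rest on 6 arrays of 1 scale and describe no more than shared ups and downs.

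The wider insulin pathway was read from 4 lists of 71 other genes, of which 63 were on the array, each by its brightest probe. In muscle, 0 of 53 measured genes were 2-fold higher and 0 were lower with MCSE, where 3.90% and 1.88% of 10711 genes were, and their median was -0.08 against -0.05 over all genes. Pdk4, which holds back glucose oxidation, was at -0.80, and Ide, the insulin-degrading enzyme, at 0.81 on its brightest probe and -0.92 on the other. Foxo3, a forkhead factor that AKT keeps out of the nucleus, was at 0.22 on its brightest probe and 2.12 on the other. That dimmer probe had 12.12 on MCSE muscle and 10.001 on PBS muscle, 9.85 on MCSE liver and 7.81 on PBS liver, and 10.24 on MCSE adipose and 7.95 on PBS adipose, so it was higher with MCSE under each label. MCSE adipose nearly repeated MCSE liver, so the adipose label was no separate comparison. The Foxo3 probe was the 1 dimmer probe of these lists that was measured and past 2-fold in muscle.

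On the liver pair, 5 of the 58 measured were past 2-fold higher and 2 past 2-fold lower, where 8.27% and 6.01% of 11342 genes were, and the median was 0.04 against -0.02. Pik3cd, a catalytic subunit of PI 3-kinase found mainly in leukocytes, was 2.10 higher. Grb7, the third adaptor of the Grb10 and Grb14 family, was 1.83 higher, at 12.01 on MCSE liver and 10.18 on PBS liver. Sos1 and Sos2, exchange factors that lead to Ras, were 1.05 and 1.04 higher, and G6pc, which releases glucose, was 1.52 higher. Flot1, a lipid-raft protein, was lower at -1.10, and Eif4ebp1, a brake on translation downstream of AKT, at -1.04 on its brighter probe and -0.04 on a dim one that was not measured. The dimmer probes of Foxo3, Ide and Igf1r, a receptor related to that of insulin, were 2.05, 1.10 and 1.57 higher, where their brightest gave 0.11, 0.76 and -0.12, and that of Igf1r stood at the floor on PBS liver. Pik3cd, Sos1, Sos2 and the dimmer probes of Foxo3 and Ide, like probe 1 of Cblb, were at least 2-fold dimmer on PBS liver than on both muscle arrays, MCSE adipose and MCSE liver.

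By role, 19 adaptors and scaffolds on the array gave 2 higher and 1 lower on the liver pair among 17 measured, 13 kinases 1 and 0 among 13, 19 phosphatases and inhibitors 1 and 0 among 16, and 12 targets 1 and 1 among 12. The medians were -0.12, 0.11, 0.30 and 0.02. Among the other SOCS genes, Socs1 gave differences of 0.25 (muscle) and 0.33 (liver pair) and Cish 0.22 and 0.32. Socs6 gave -0.36 and 0.29 on its brightest probe, Socs2 gave 0.54 for the liver pair and was not measured in muscle, and Socs7 was measured on neither pair. Each of those values lay within the SD per probe of its pair.

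Genes of the gp130 and STAT3 pathway, which drives Socs3, did not move one way. In muscle 0 of 12 measured genes were 2-fold higher and 2 were lower (3.90% and 1.88% of all genes), Jak1, a cytokine receptor kinase, at -1.04 and Stat3 itself at -1.07 (second probe -0.41). On the liver pair 4 of 11 were higher and 0 lower (8.27% and 6.01% of all genes), with Icam1, an adhesion molecule, at 1.41, Junb, an early response factor, at 1.38, Il4ra at 1.28 and Jak1 at 1.13. Il6, the cytokine best known to induce Socs3, had 8.89 on MCSE muscle and 7.74, the floor, on PBS muscle, and 8.92 on MCSE liver and 7.92 on PBS liver. Each of these lay under the all-probe median, so Il6 was not counted. On MCSE adipose it had 9.16, just above that median, and on PBS adipose 7.74, again the floor.

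**Figure D5:**
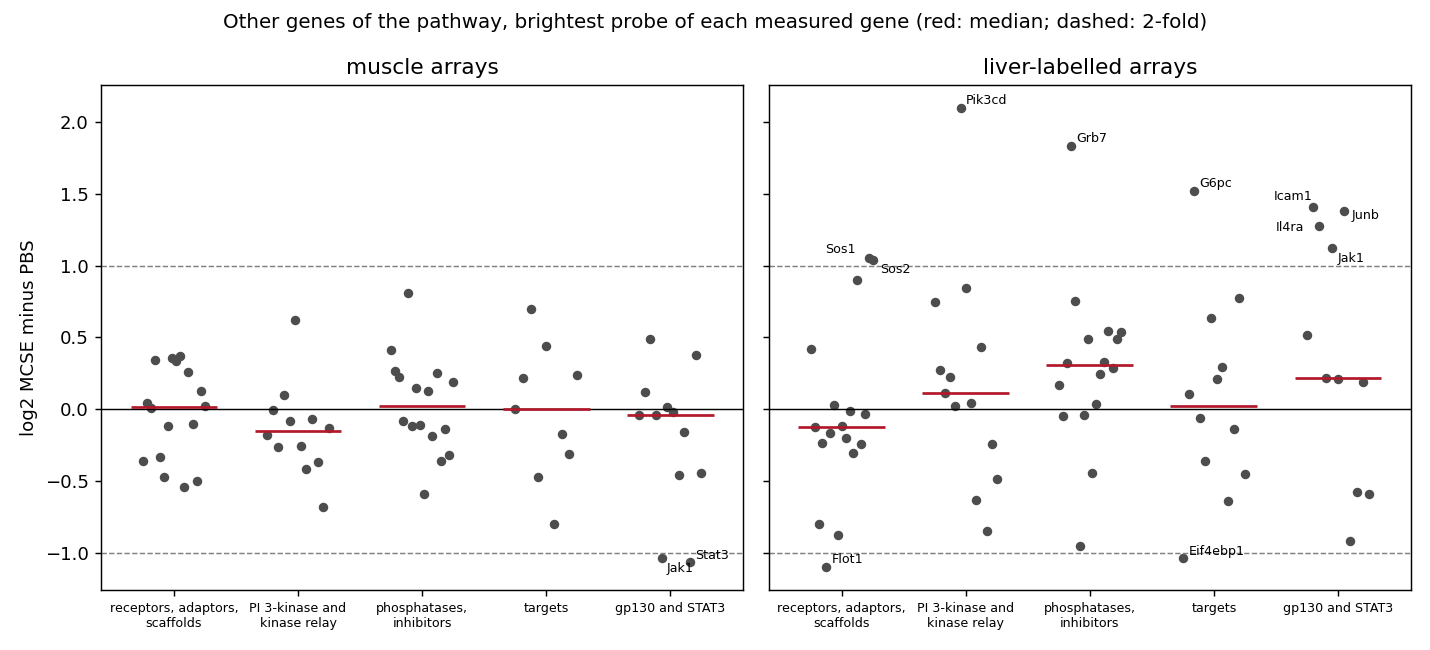
log2 MCSE minus PBS (y axis) of the measured genes of 5 lists (x axis) on the muscle pair (left) and the liver-labelled pair (right), each gene by its brightest probe, with list medians in red and the 2-fold limits dashed. Jak1 (-1.04) and Stat3 (-1.07) alone passed 2-fold in muscle, whereas Pik3cd (2.10), Grb7 (1.83) and G6pc (1.52) led on the liver pair.

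Between muscle and the liver label, 7 of the 63 other pathway genes passed as higher and 5 as lower in muscle with limma, where 4.82% and 8.48% of 16675 genes did. These calls shared the limits of the fit, which over all probes gave 0 calls with treatment as a term or with any 1 array left out, and 48 higher and 0 lower with 6 arrays. Of the targets, Pdk4 was 4.65 higher in muscle (limma adjusted p = 0.0218), Hk2, the hexokinase of muscle and fat, 1.95 (0.0368) and Slc2a4, the GLUT4 transporter, 1.70 (0.0486), while Gys2, the liver glycogen synthase, was lower at -2.16 (0.0185). Of the kinases, Pdpk1, which activates AKT, was 1.36 higher (0.0316), and Prkci (-2.63), Pik3r3 (-1.98) and Pik3cb (-0.70) were lower (0.0284, 0.0272 and 0.0477). Rapgef1 (1.37), Socs1 (1.21) and Inppl1, a lipid phosphatase (0.82), were higher in muscle and Dok4, a docking protein, lower at -1.53, with limma adjusted p of 0.0370, 0.0472, 0.0438 and 0.0290.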

How the data were processed

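Total RNA of the labelled tissues was amplified and given a Cy5 label for one-colour oligonucleotide arrays, per the labels' protocols. The authors deposited normalized intensity values on a linear scale, with 6 columns and 29922 probes. Limma is named, with no role, in the submitters' processing notes. Background correction, normalization and genome build are not given in the sources used here. From the values, sorted intensities of the 6 arrays differed from their median by at most 0.038 on the log2 scale, so all arrays had been brought to 1 distribution, which can stretch a weak array. No detection calls were used.

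Values under the 5th percentile (214.3) were raised to it before log2 was taken. Differences were log2 MCSE minus PBS, counted from 2-fold on. The error gauge was the SD of the gap between the 2 brightest measured probes of a gene, divided by the square root of 2 (1504 genes in muscle, 1653 on the liver pair). Labels were compared with limma 3.58.1 (lmFit, eBayes) in R 4.3.3 over 21020 probes without a filter, with Benjamini-Hochberg adjustment, after the fit had been tested on simulated data. The residual degrees of freedom were 2 and the prior degrees of freedom 1.41. Its p-values measure only the spread between the 2 arrays of a label, and the number of arrays limits all precision. The adipose-labelled arrays were left out of it. Alternatives were other scalings, thresholds, probe choices and limma designs, and leaving out single arrays.

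Members, lists, markers and the choice of arrays were set with earlier results of these data known. List genes were matched by symbol or by an older synonym in a RefSeq gene table. Named were every member probe, other pathway genes past 2-fold or among the 4 largest limma calls of a list, and for 3 members the 3 most similar genes. The values of MCSE adipose against MCSE liver, and Pdk4, Ide, Foxo3, Igf1r, Socs1, Socs2, Socs6, Socs7, Cish and Il6 in the comparison of MCSE with PBS, were chosen after they were seen. Python 3.11.15, numpy 2.4.6, pandas 2.3.3, statsmodels 0.14.6 and matplotlib 3.10.9 were used.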

Additional observations from a re-analysis of the deposited data

Results flagged for a closer look

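Grb14 on MCSE adipose, an array in no comparison of MCSE with PBS and not among the 4 arrays of the limma comparison, was 1.56 higher on the log2 scale than on the highest of the 3 PBS arrays. That highest array was PBS liver (9.76). MCSE adipose nearly repeated MCSE liver (correlation 0.982, Grb14 at 11.31 and 11.28). The value thus largely restated the liver-pair difference of 1.52 and is no separate support. Kidney genes were also bright on MCSE adipose (median 13.09), and their part in the Grb14 level was not tested.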

How the results depend on the processing

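The labels give no replicate numbers. Between labels, the fit with treatment as a term compared arrays within each treatment, and MCSE against PBS had 1 array a group, so no array could be left out there. Counts of member probes past 2-fold changed by over 1.5 times in 3 cases: removing a trend with brightness left 1 lower in muscle (Pik3r1, at -0.9995, no longer passed), a 1.5-fold threshold gave 2 lower on the liver pair, and the brightest probe of each gene gave 0 lower there. No difference of a member probe between MCSE and PBS changed by more than the SD per probe under quantile normalization, no floor, 32 added before log2 or removal of the trend. For muscle against the liver label, limma called 0 member probes with all 6 arrays, treatment as a term or a trended prior (0, 6 and 3 at an unadjusted p under 0.05), and 2 with dim probes filtered out (Insr and probe 1 of Cblb, with probe 3 of Akt2 not tested) or 32 added (Insr and probe 3 of Akt2). Over all probes it called 48 higher and 0 lower with 6 arrays (1984 unadjusted), and 0 and 0 with treatment as a term (7168 unadjusted). Leaving out any 1 of the 4 arrays left 1 residual degree of freedom, with the lone array assumed to vary like the other label, and gave 0 member calls and 0 calls over all probes (3712 to 7323 unadjusted), against 947 and 1625 with all 4. Across these fits Pik3r1 ran from -0.0074 (without PBS muscle) to 1.05, probe 2 of Cblb from -0.0792 (without MCSE liver; -0.0327 without PBS muscle) to 0.43, and probe 1 of Akt2 from -0.24 (without MCSE liver) to 0.41. The cause was not tested, beyond fewer arrays. Signals below the median of all probes, as of Irs1 and probe 2 of Grb10, set the limit to what could be seen.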

Other observations

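Insr had its highest value on PBS adipose, at 14.66, against 11.16 on MCSE adipose and 9.96 to 11.94 on the other arrays. Other pathway genes bright on that array were Rheb, the activator of mTORC1, at 14.06, Gsk3b, a glycogen synthase kinase, at 13.09, and Cblc, the third member of the Cbl family, at 12.88. Crk, an adaptor of the Cbl pathway, was dim there at 8.63, against 11.46 to 13.05 elsewhere, as were Sos2 (7.74, the floor) and Tsc1 (7.99). The marker lists with the highest medians on PBS adipose were smooth muscle (12.51), lymphocyte (11.76) and slow fibre (11.46). Their part in these levels was not tested. The genes and lists named here were chosen after their values were seen.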
